A study of Mus musculus with 3 samples.

Results

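The 8 genes Pf4, Ppbp, Itga2b, Gp1ba, Gp1bb, Gp5, Gp6 and Gp9, which encode platelet chemokines and platelet adhesion receptors, were followed in islet graft-bearing spleens. They were taken by gene name from the array annotation, and they had 10 probes among the 55679 gene probes of the array. Total spleen RNA was measured on day 0, day 2 and day 139 after transplantation, with 1 single-color array for each day and no replicates. All recipients were C57BL/6J mice (male, by the methods of the study) made diabetic with streptozotocin, with a graft of 25 syngeneic islets in the spleen and a second graft of 100 islets under the capsule of a kidney. The labels list the kidney graft among the characteristics of the day 139 sample alone, while their treatment text and the methods give it to all 3. For the day 139 sample the grafted kidney was taken out on day 100. The methods give a range of ages for the mice of the study as a whole, but neither an age for each group nor the number of mice behind each array, and no spleen without islets was analysed here. Time after transplantation and the nephrectomy differ together between day 139 and the earlier days and cannot be told apart. Spleen markers, including Tlx1, Cd79a, Spic and Cd3e, were well above background in all 3 samples (9 of 9 genes of a spleen list).

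Megakaryocytes are the large polyploid cells that release platelets. In mice they reside in the spleen as well as in the bone marrow, and the red pulp also holds a pool of stored platelets. Platelets carry RNA made by the megakaryocyte, package chemokines in alpha granules, adhere to von Willebrand factor through the GPIb-IX-V receptor complex, bind collagen through GPVI, and aggregate through the integrin alphaIIb-beta3. Spleen RNA therefore contains the transcripts of megakaryocytes and of platelets together. In such bulk RNA, fewer cells of a type and less RNA per cell cannot be told apart.

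All 8 genes were lower on day 139 than on day 0, and all 8 were lower than on day 2 as well, except for Itga2b and Gp5 when the arrays were scaled to spike-in controls instead of to a common distribution. Relative to day 0 the median log2 ratio of the 8 genes was -0.75, with single genes from -1.19 for Gp1ba to -0.44 for Gp9, against a median of 0.00 over the 22851 genes detected. Relative to day 2 the median was -0.59, against -0.03 over all genes. Day 2 differed little from day 0, with a median of -0.13, against 0.02 over all genes. Of all genes, 37.6% had their lowest signal on day 139. These differences describe 3 RNA samples, and without replicates they could not be tested.

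**Figure D1:**
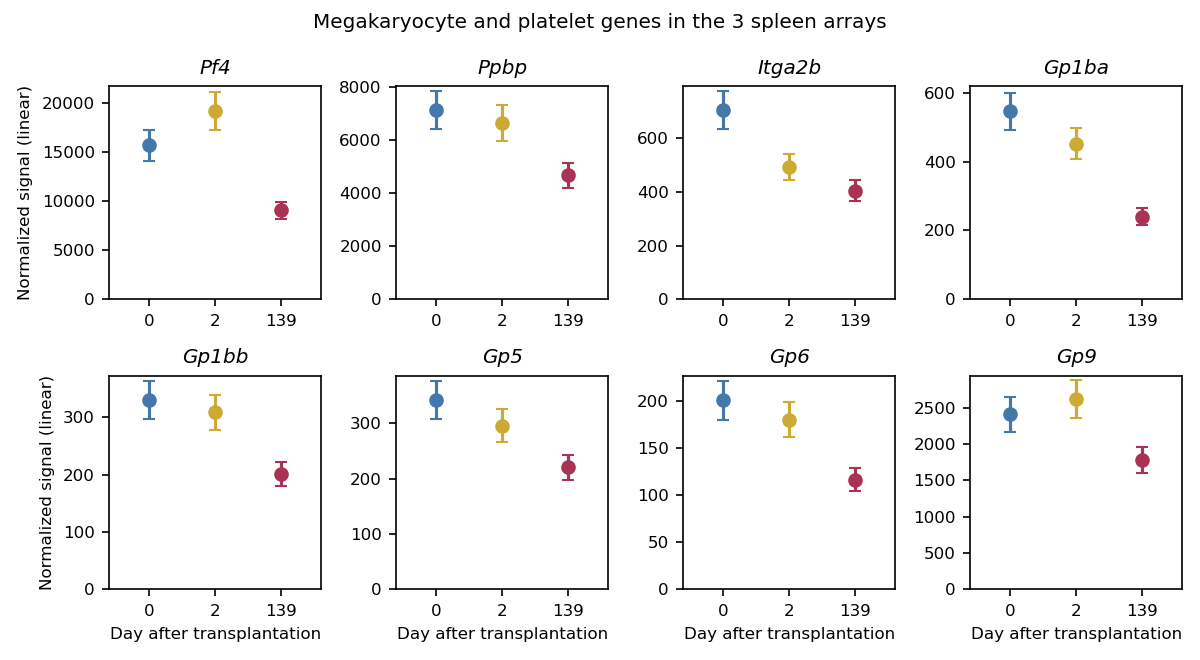
Normalized signal (linear scale, starting at 0) of the 8 genes on day 0, day 2 and day 139, with 1 point for each array and error bars that give the scanner software's error of the spot. With quantile normalization the day 139 point is the lowest of the 3 in each panel, and the Pf4 signal is highest on day 2 (19190).

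A normalized signal is the background-subtracted brightness of a probe after the 3 arrays were given the same distribution. The errors given with signals are those of the scanner software for a single spot, since each of the 10 probes was present as 1 spot. They are set largely as a fixed proportion of the signal, corresponded to between 0.20 and 0.21 on the log2 ratio of 2 arrays, and cover neither the labeling nor differences between mice. All 8 genes had a probe well above background on each array, and no such spot was saturated.

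The chemokine genes lie side by side on chromosome 5. Pf4 encodes platelet factor 4, an abundant alpha granule protein that binds heparin and restrains megakaryocyte growth. Its probe lies at chr5:91202275-91202334 on the plus strand of mm9, the build of the array annotation. Before normalization its signal was 15895 ± 1590 on day 0, 20756 ± 2076 on day 2 and 8024 ± 802 on day 139. Normalized signals were 15698, 19190 and 9062. The day 139 level was thus 42.3% below day 0 (log2 ratio -0.79) and 52.8% below day 2 (log2 ratio -1.08), each more than 2 times the scanner error. The day 2 level was above that of day 0 by 0.29 on the log2 scale, which is less than 2 times the error.

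Ppbp encodes pro-platelet basic protein, the precursor of the neutrophil-attracting chemokine CXCL7. It was read at chr5:91198970-91199029 on the plus strand, with signals of 7350 ± 735, 7273 ± 727 and 4150 ± 415 before normalization. The normalized signals of 7137, 6635 and 4674 placed day 139 at 34.5% below day 0 and 29.6% below day 2. Days 0 and 2 did not differ beyond the error of the spots (log2 ratio -0.11). Cxcl5 and Cxcl3 are the chemokine genes on either side of this pair. Cxcl5 was lowest on day 139 too, with signals of 785, 461 and 73.9. Cxcl3 was at least 15.3-fold higher on day 0 (279) than on day 139, where it was not well above background. Its day 2 signal (18.2) was too dim to be set against day 139. Both platelet chemokine genes were lowest on day 139. Pf4 was highest on day 2 and Ppbp on day 0, but the log2 ratios of the pair differed by less than 2 times the combined error in each comparison (0.58 ± 0.29 for day 139 over day 2).

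Next, the subunits of the GPIb-IX-V complex were examined. Gp1ba encodes the subunit that binds von Willebrand factor and thrombin. Its probe (chr11:70455461-70455520, plus strand) gave 572 ± 57.3 on day 0, 474 ± 47.5 on day 2 and 217 ± 22.0 on day 139 before normalization. After normalization the signals were 546, 452 and 240. Gp1ba had the largest difference of the 8 genes between day 139 and day 0, at 56.0% lower (log2 ratio -1.19), and it was 46.9% lower than on day 2 (log2 ratio -0.91). The difference of -0.27 between day 2 and day 0 did not exceed 2 times the error.

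Gp1bb encodes the subunit that is disulfide-linked to GPIb-alpha and controls its surface expression. It was read by 3 probes, and the brightest is annotated to both RefSeq transcript variants of the gene. This probe lies at chr16:18621107-18621166 on the minus strand, and 80.0% of its bases are G or C. It is shown because each Gp1bb value below rests on it.
Gp1bb probe: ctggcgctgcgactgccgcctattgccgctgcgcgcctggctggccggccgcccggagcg
Its normalized signals were 330, 309 and 201, from 346 ± 34.7, 322 ± 32.4 and 182 ± 18.5 before normalization. Day 139 was 39.1% below day 0 (log2 ratio -0.72) and 34.8% below day 2 (log2 ratio -0.62), while days 0 and 2 did not differ beyond the error (-0.10). The other probes target 1 variant each. The probe of variant 2 (chr16:18621717-18621776) was well above background on day 0 only, with normalized signals of 14.8, 14.0 and 12.7, and the probe of variant 1 (chr16:18621535-18621594) did not rise well above background on any of the arrays (3.63, 4.81 and 3.69). Gp1bb overlaps the gene Septin5 in RefSeq. Sept5, as the array names it, had normalized signals of 30.5, 58.7 and 49.4, an order of the days that differs from that of Gp1bb.

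Gp9 encodes glycoprotein IX, a small subunit required for assembly of the complex. It was read at chr6:87729650-87729709 on the plus strand, with 2509 ± 251, 2779 ± 278 and 1616 ± 162 before normalization. The normalized signals of 2409, 2614 and 1779 gave the smallest difference of the 8 genes over day 0, at 26.2% lower (log2 ratio -0.44), and 31.9% lower than on day 2 (log2 ratio -0.55). Gp5 encodes glycoprotein V, a thrombin substrate that joins the complex. Its probe (chr16:30308347-30308406, minus strand) had normalized signals of 343, 296 and 221, from 359 ± 36.1, 310 ± 31.2 and 199 ± 20.3. Day 139 lay 35.7% below day 0 and 25.4% below day 2. All 4 subunits were lowest on day 139, although under spike-in scaling Gp5 lay 0.02 above its day 2 level on the log2 scale. Within the complex Gp1ba and Gp9 differed in their log2 ratio over day 0 by 0.75 ± 0.29 (combined scanner error), and this was the only pair of the 28 possible among the 8 genes that differed by more than 2 times the error in that comparison.

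Itga2b encodes the integrin alphaIIb, also known as CD41, which pairs with the beta3 subunit into the fibrinogen receptor of platelets and is present from early in the megakaryocyte lineage. Its probe spans 209 bases of the minus strand of the genome for 60 bases of transcript (chr11:102319453-102319661), so that it crosses an intron and reads spliced RNA. It is shown for this reason.
Itga2b probe: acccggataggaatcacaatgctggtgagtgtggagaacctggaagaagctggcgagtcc
The signal was 739 ± 74.0 on day 0, 515 ± 51.6 on day 2 and 366 ± 36.8 on day 139 before normalization. The normalized signals were 704, 493 and 405. Itga2b was already 29.9% lower on day 2 than on day 0 (log2 ratio -0.51), and it was the only one of the 8 genes for which these days differed by more than 2 times the error. Day 139 was 42.4% below day 0 (log2 ratio -0.80). Day 139 and day 2 did not differ beyond 2 times the error (log2 ratio -0.28).

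Gp6 encodes glycoprotein VI, the collagen receptor that signals through the Fc receptor gamma chain. It was read at chr7:4320351-4320410 on the minus strand, with 210 ± 21.3, 188 ± 19.1 and 105 ± 11.2 before normalization. Its normalized signals of 200, 180 and 116 placed day 139 at 41.9% below day 0 (log2 ratio -0.78) and 35.4% below day 2 (log2 ratio -0.63). The signaling partner Fcer1g, which other myeloid cells express too, had signals of 24865, 20607 and 20703, so that it did not share the step between day 2 and day 139.

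The partners of the other receptors had lower signals on day 139 as well. Itgb3, the beta3 partner of Itga2b, had normalized signals of 5342, 5258 and 3390, with a log2 ratio of -0.66 over day 0. Vwf, the ligand of GPIb-alpha and a product of endothelial cells too, had 2561, 2446 and 1753, with a log2 ratio of -0.55. A further Vwf probe had a log2 ratio of -0.19, and a further probe of Itgb3 gave -0.69. Vwf was named after its values were seen.

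The criteria of the study for single genes were a ratio of at least 1.5 or at most 0.66 together with a Z-score of at least 2 or at most -2. By the ratio alone, 7 of the 8 genes (all but Gp9) were lower on day 139 than on day 0, against 13.7% of all genes. Relative to day 2, 4 of the 8 (Pf4, Gp1ba, Gp1bb and Gp6) were lower, against 13.5% of all genes, and these 4 passed in both comparisons, as did 7.18% of all genes. Scaling to spike-in controls left 1 gene lower in each comparison, against 6.89% of all genes over day 0 and 5.41% over day 2. A normexp background correction left 3 over day 0, against 6.05% of all genes, and 2 over day 2, against 5.63%. The comparisons share the day 139 array. Between day 2 and day 0 none of the 8 passed, against 9.87% of all genes lower and 9.94% higher, and 6 of the 8 had a lower signal on day 2, against 47.2% of all genes. None of the 8 was higher by the ratio limit on day 139, against 13.6% of all genes over day 0 and 12.8% over day 2.

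**Figure D2:**
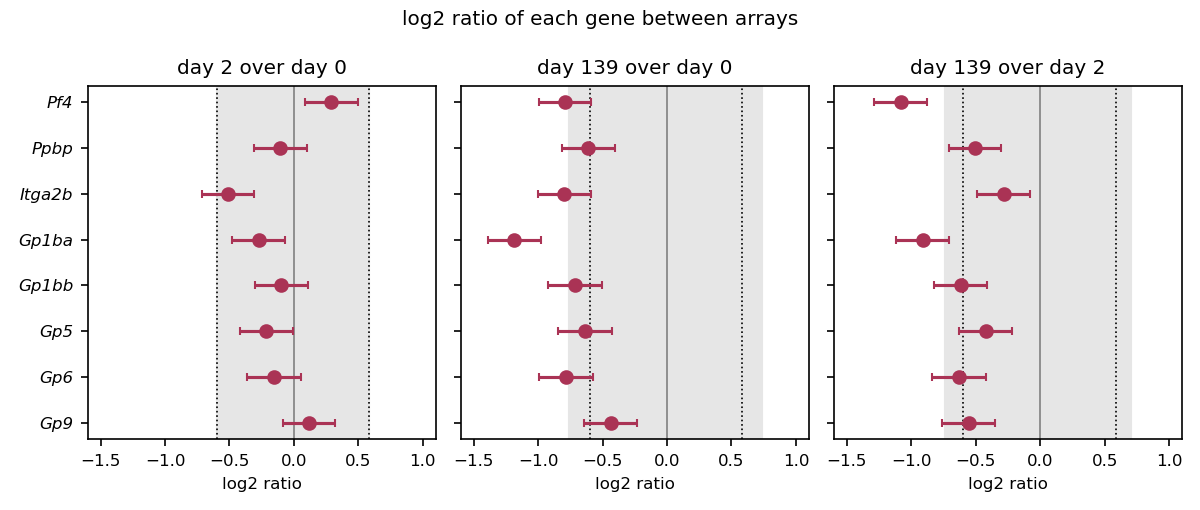
log2 ratio of each gene (points) with the scanner error of the ratio (bars) for day 2 over day 0, day 139 over day 0 and day 139 over day 2. The gray band spans the 10th to the 90th percentile of all 22851 genes, the dotted lines mark ratios of 1.5 and 0.66, and with quantile normalization each of the 8 points lies below 0 in the comparisons with day 139 (with spike-in scaling Itga2b and Gp5 lie above 0 over day 2).

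With the Z-score the counts were smaller. To obtain the Z-score, each log2 ratio was set against an SD of the same comparison, that of the 1000 probes of most similar signal. This SD was 0.58 to 0.67 for these genes in day 139 over day 0. The methods of the study give no formula for its Z-score, so the one used here may differ from it. By both criteria 0 of the 8 genes were lower on day 139 than on day 0, against 2.45% of all genes lower and 3.0% higher, and the Z-score closest to the limit was -1.87, for Gp1ba. Over day 2, Pf4 alone passed both, with a Z-score of -2.06, against 1.96% of all genes lower and 2.8% higher. Between day 2 and day 0 none of the 8 passed both, against 2.88% of all genes lower and 2.2% higher. Apart from Pf4 over day 2, each single difference was thus within 2 SD of probes of like signal. What the 8 genes had in common with quantile normalization was the direction on day 139. Under spike-in scaling Itga2b and Gp5 did not share that direction over day 2. Of all genes, 50.3% were lower on day 139 than on day 0 and 52.5% were lower than on day 2.

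How far the 8 genes were lower depended on the scaling. Quantile normalization gives each array the same distribution, but the signal of 8 spike-in controls on day 139 was 65.6% of that on day 0 before normalization. Scaling to these controls moved the median log2 ratio of all genes to 0.38 over day 0 and 0.40 over day 2. The median of the 8 genes then became -0.35 over day 0 and -0.16 over day 2. All 8 genes remained lower than on day 0, from -0.79 for Gp1ba to -0.03 for Gp9, but over day 2 Itga2b (0.17) and Gp5 (0.02) were above 0. Relative to the median of all genes, each of the 8 was lower on day 139 under both scalings. The distance of their median from it was -0.75 over day 0 with quantile normalization and -0.73 with spike-in scaling. Spike-in scaling moves all genes of an array by 1 common factor. It could therefore not change the place that the 8 genes had relative to that median before normalization. The likeness of these distances is thus no separate check.

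**Figure D3:**
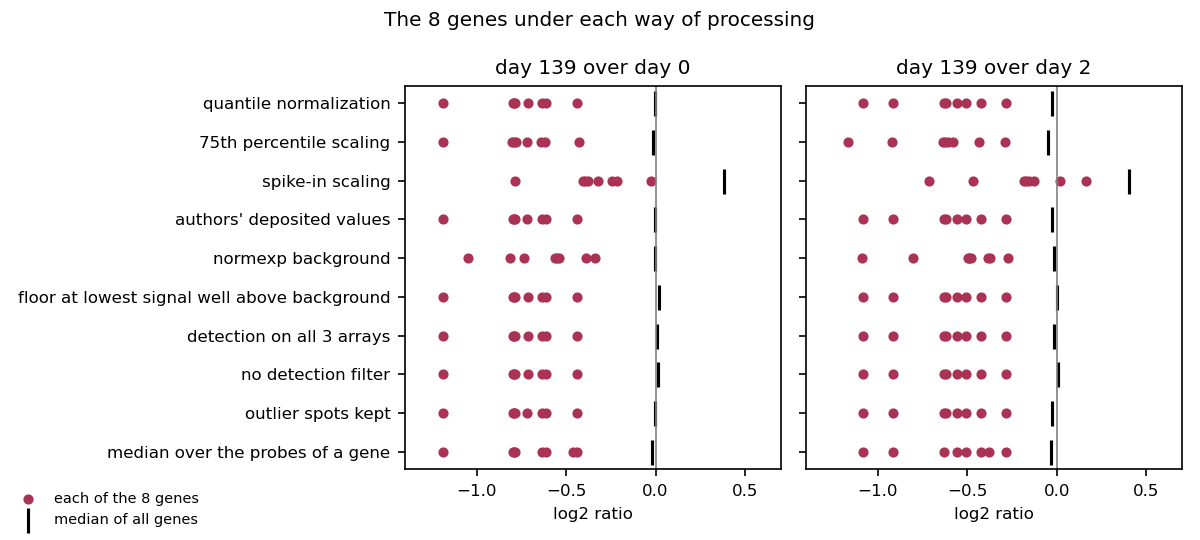
log2 ratio of each of the 8 genes (red points) and the median of all genes (black bar) for day 139 over day 0 and over day 2 under each way of processing the arrays. The points lie to the left of the bar in each row. The largest shift of both is that of the spike-in scaling, which moves all genes of an array by a common factor.

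Other genes of megakaryocytes and platelets were then examined by role. Of 75 genes listed, 73 were detected. On day 139, 15 of them (20.5%) were lower and 3 (4.11%) higher than on day 0 by the ratio limits. The median log2 ratio was -0.16. Of all genes, 13.7% were lower and 13.6% higher. Over day 2, 19 (26.0%) were lower and 2 (2.74%) higher, with a median of -0.17, against 13.5% and 12.8% of all genes. With spike-in scaling 8 were lower than on day 2, against 5.41% of all genes, and 18 were higher. Between day 2 and day 0, 8 (11.0%) were lower and 5 (6.85%) higher, with a median of 0.00, against 9.87% and 9.94% of all genes. Many of these genes are shared with other blood cells and with muscle or endothelium. With spike-in scaling, which moved all genes upward, 5 of the 73 were lower than on day 0, against 6.89% of all genes. Under that scaling 18 were higher than on day 0. The median log2 ratio of all genes rose with it to 0.38 over day 0 and 0.40 over day 2. The share of all genes higher was not computed for that scaling, so counts of higher genes under it have no share to stand beside. The counts below are those with quantile normalization, unless stated. Those over day 0 by the ratio limits stand beside 13.7% of all genes lower and 13.6% higher.

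Among the agonist receptors, 2 of 9 genes were lower on day 139 than on day 0 and none was higher. P2ry1, a receptor for ADP, had signals of 321, 319 and 164 (log2 ratio -0.97 over day 0). F2rl3, which encodes the thrombin receptor PAR4, had 170, 117 and 85.2 (log2 ratio -0.996 by the brighter of its 2 probes, -0.53 by the other). The other ADP receptor P2ry12 was not lower, with 131, 163 and 190 (log2 ratio 0.54), and Tbxa2r, the thromboxane receptor, was nearly level at 890, 930 and 919.

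None of the 5 detected genes among the ITAM-coupled and inhibitory receptors passed the ratio limits over day 0. Clec1b, the podoplanin receptor CLEC-2 of platelets, had signals of 1703, 1640 and 2004. Treml1, a platelet alpha granule receptor, had 2716, 3032 and 2260. Clec1b thus had its highest signal on day 139, unlike the 8 adhesion and chemokine genes. Its 3 probes gave log2 ratios between 0.23 and 0.45 over day 0. For the brightest probe the differences over day 0 (0.23) and day 2 (0.29) were less than 2 times the scanner error (0.20).

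Of 9 integrin and integrin activation genes, Itgb3 and Itga2 were lower on day 139 than on day 0 and none was higher. Itga2, the collagen-binding integrin alpha2, was dim (25.5 and 21.4) and no longer well above background on day 139 (12.6). Its level on day 0 was at least 1.40-fold higher, a bound that does not reach the ratio limit. Its place among the 15 genes lower than on day 0, and the 19 lower than on day 2, thus rests on that dim signal. Tln1, which activates integrins from inside the cell and is shared with leukocytes, had a log2 ratio of -0.24, and Itga6, the laminin-binding integrin alpha6, had -0.15. Rap1b stood apart with a low value on day 2 alone (10454, 3830 and 11367).

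Of 16 genes for other granule cargo and secretion, 5 were lower on day 139 than on day 0 and none was higher. These were Thbs1 (3164, 1589 and 726), F13a1 (5393, 1833 and 948), Selp (172, 162 and 48.2), F5 (379, 322 and 201) and Srgn (18482, 9292 and 10776). A further F13a1 probe gave a larger difference (log2 ratio -4.11 against -2.51). Thrombospondin 1, factor XIII subunit A and serglycin are made by macrophages or other myeloid cells too, and P-selectin by endothelial cells. Thbs1, F13a1 and Srgn were already lower on day 2, whereas Selp and F5 had their larger step between day 2 and day 139.

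Of 9 genes for the cytoskeleton, Tubb1 alone was lower on day 139 than on day 0. Tubb1 encodes the beta1-tubulin of the platelet marginal band, and its signals were 163, 149 and 101 (log2 ratio -0.69). Myl9 and Mylk, which smooth muscle expresses strongly, were higher on day 2 than on day 0, with log2 ratios of 1.48 and 1.39. Of 13 signaling and eicosanoid enzymes, Alox12 was lower and Syk higher. Alox12, the platelet 12-lipoxygenase, had 1249, 1168 and 766 (log2 ratio -0.71 over day 0, -0.66 by its other probe). Syk, which B cells also use, had 6144, 6273 and 9407 (log2 ratio 0.61). Its other probe gave 0.44, which does not pass the ratio limit.

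Of 12 detected genes on a list of transcription factors and signaling genes of the lineage, 4 were lower and 2 higher on day 139 than on day 0. Gata1 had signals of 9122, 11180 and 4832, and its cofactor Zfpm1 had 9505, 10247 and 5242. Tal1 had 7760, 7422 and 4102, and Gfi1b had 3408, 5028 and 2011. These 4 factors act in both the erythroid and the megakaryocyte lineage. Fli1 (999, 1168 and 1556) and Mef2c (133, 174 and 225), which lymphocytes also express, were the higher ones. With spike-in scaling none of the 12 was lower than on day 0 by the limit, and Fli1 and Mef2c were still the higher ones.

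**Figure D4:**
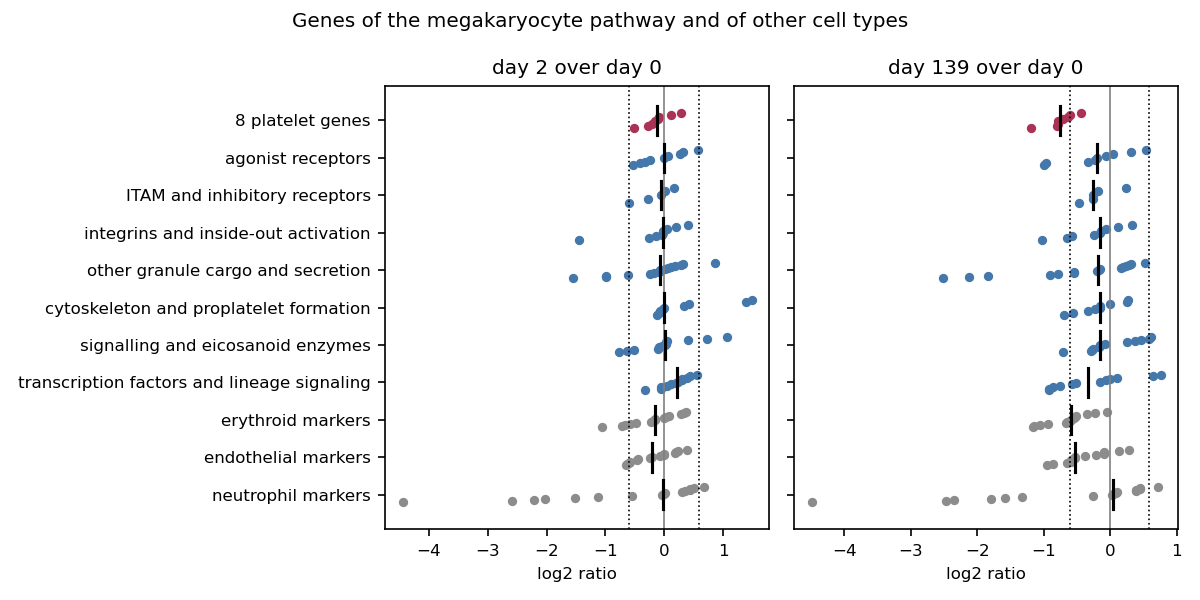
log2 ratio of single genes (points) and the median of each list (black bars) for day 2 over day 0 and day 139 over day 0, with the 8 platelet genes in red, other megakaryocyte and platelet genes by role in blue and markers of other cell types in gray. The dotted lines mark ratios of 1.5 and 0.66, and the bar of the 8 platelet genes lies at -0.75 on day 139, near those of the erythroid (-0.59) and endothelial (-0.53) markers.

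With quantile normalization, markers of erythroid and endothelial cells were mostly lower on day 139 too, while the other lists were mixed. All 15 detected erythroid markers were lower than on day 0 (12 of 15 with spike-in scaling), 7 of them by the ratio limit, with a median log2 ratio of -0.59. Their summed signal was 257520 on day 0, 236955 on day 2 and 185109 on day 139, and each of the 15 was well above background on each array. For endothelial cells, 13 of 15 markers had lower signals than on day 0 (8 of 15 with spike-in scaling), 3 of them past the limit, the median was -0.53, and the sums were 53208, 51168 and 43206. The erythroid and endothelial medians were -0.19 and -0.12 with spike-in scaling. For neutrophils, 6 of 16 markers were lower and 1 higher by the limit at a median of 0.04, and the summed signal of 270188 on day 0 was above those of 123445 and 129821 on day 2 and day 139. Of 9 mast cell and basophil markers detected, 5 were lower and 3 higher than on day 0 (median -0.67), and of the 9 spleen markers, 0 were lower and 3 higher (median 0.23). The part of these cell types in the platelet gene values was not tested.

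The genes with the most similar pattern were sought among the 19800 other genes that were well above background on all 3 arrays. Likeness was the Euclidean distance between the centered log2 signals of a gene over the 3 arrays and the median profile of the 8 genes. The nearest 10 were Egr1, A730008H23Rik, Tubb1, P4ha1, Kel, Ptpru, B430203I24Rik, Ydjc, Nup188 and Ptk2, at distances of 0.02. Tubb1 was also on the cytoskeleton list. The 8 genes themselves lay at distances of 0.04 (Gp1bb) to 0.38 (Pf4), and 19.6% of the other genes lay within that range, so that this profile over 3 arrays was a common one.

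Finally, the promoters of the 8 genes were compared, because the genes were lower together and megakaryocyte genes are known to be controlled by GATA and ETS factors. All 8 genes matched a promoter in RefSeq (GRCm38.p6) by symbol, and the 250 bases before the transcription start were searched on both strands. The GATA letters searched were AGATAA or TGATAA and AGATAG or TGATAG, and the ETS letters were AGGAAG and CGGAAG. No GATA and ETS match overlapped in these promoters. GATA letters were present in 4 of 8 (Gp1ba, Gp1bb, Gp5 and Gp6), against 26.5% of 32851 promoters. ETS letters were present in 6 of 8 (all but Ppbp and Gp6), against 39.2%. Both were present in 3 of 8, against 9.21%. The RUNX letters TGTGGT were found in 1 of 8 (Gp9), against 14.0%, and TATAAA in 1 of 8 (Ppbp), against 12.4%. The promoters of Gp1ba and Gp5, which hold both, and of Pf4, which had the largest difference over day 2, are shown with the matches in capitals.
Gp1ba, chr11:70638872-70639121, plus strand: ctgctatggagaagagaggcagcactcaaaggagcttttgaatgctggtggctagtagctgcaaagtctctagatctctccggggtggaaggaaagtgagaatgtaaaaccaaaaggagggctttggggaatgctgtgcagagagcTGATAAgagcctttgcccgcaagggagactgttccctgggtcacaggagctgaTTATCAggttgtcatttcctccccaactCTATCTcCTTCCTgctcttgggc
Gp5, chr16:30310782-30311031, minus strand: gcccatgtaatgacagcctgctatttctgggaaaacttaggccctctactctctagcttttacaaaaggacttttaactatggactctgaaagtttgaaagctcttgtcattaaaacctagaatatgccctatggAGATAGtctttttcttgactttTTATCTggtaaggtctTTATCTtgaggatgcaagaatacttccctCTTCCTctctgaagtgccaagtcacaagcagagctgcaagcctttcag
Pf4, chr5:90772185-90772434, plus strand: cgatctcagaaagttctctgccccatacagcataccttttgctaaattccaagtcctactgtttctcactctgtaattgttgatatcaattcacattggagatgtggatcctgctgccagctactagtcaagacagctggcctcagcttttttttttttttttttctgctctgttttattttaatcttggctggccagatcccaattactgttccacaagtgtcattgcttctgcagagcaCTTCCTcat

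The Gp1ba promoter held 3 GATA matches, with first bases 104, 51 and 23 bases before the start, and an ETS match at 16. The Gp5 promoter held 3 GATA matches at 115, 93 and 77 bases and an ETS match at 48, while that of Pf4 held an ETS match at 9 bases. A match describes the letters in this window and no binding was measured.

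**Figure D5:**
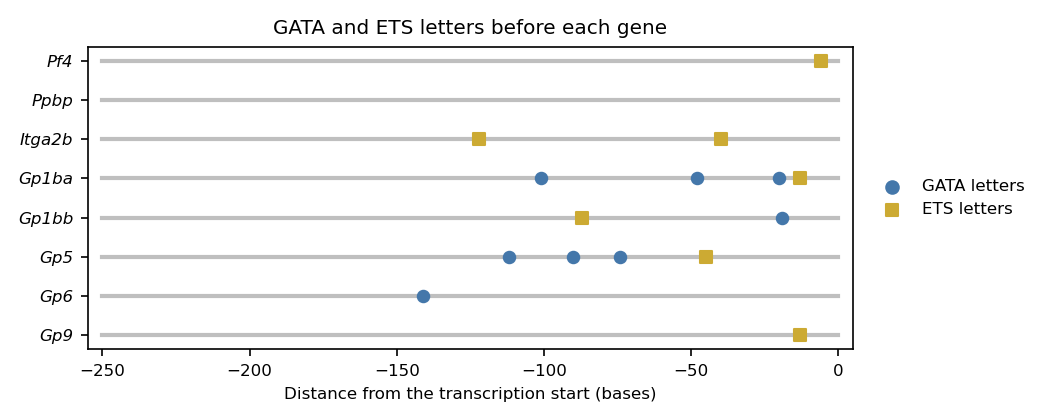
Position of GATA letters (circles) and ETS letters (squares) in the 250 bases before the transcription start of each of the 8 genes, with distance from the start in bases on the horizontal axis. Gp1ba, Gp1bb and Gp5 hold both kinds of letters and Ppbp holds neither.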

How the data were processed

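Islet graft-bearing spleens from 3 time points were measured on 1 array each. The authors deposited scanner output with the intensity of each spot on a linear scale, background-subtracted and corrected for spatial trends by Feature Extraction (10.7.1.1 per the file headers, 9.5.1.1 per the labels). They also deposited a table of quantile normalized intensity values, used as an alternative. Detection flags (other columns of 0 or 1) came with the deposited files.

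Control and outlier-flagged spots were left out, spots of a probe averaged, and 55679 probes quantile normalized, floored at 1 and taken to log2. A probe was detected when well above background on at least 1 array (32108 probes, 22851 genes). Arrays had 50.4% to 54.4% of probes well above background, and their number limits the precision. The brightest detected probe stood for a gene. No p-value was computed. Members and lists were chosen with earlier results of these data known, and the lists were written from general knowledge.

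All 8 genes are named. Other genes were chosen for naming, and not all were named, among those that passed a ratio limit, were among the 3 brightest others of a list, adjoined or overlapped a member, or were the nearest 10 in profile. Vwf was added. The code that makes the calls was run on simulated arrays with less spread than these, which checks the code and not the calls. Tools were Python 3.11.15, numpy 2.4.6, pandas 2.3.3, matplotlib 3.10.9, R 4.3.3 and limma 3.58.1.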

Additional observations from a re-analysis of the deposited data

How the results depend on the processing

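The alternatives were 75th percentile scaling, spike-in scaling, a normexp background, the deposited values, detection required on all 3 arrays or on none, outlier spots retained, dim signals set to the dimmest value called well above background, the median of a gene's probes, and a ratio limit of 2 or 0.5. Spike-in scaling moved the median log2 ratio of the 8 genes to -0.35 for day 139 over day 0 and -0.16 for day 139 over day 2. It left 1 gene lower by the ratio limit in each comparison, against 6.89% and 5.41% of all genes. With a normexp background 3 genes were lower over day 0 and 2 over day 2, against 6.05% and 5.63% of all genes. With the ratio limit of 2 or 0.5, 1 gene was lower in each (Gp1ba over day 0, Pf4 over day 2), against 6.46% and 5.65% of all genes. The other medians and counts stayed within the scanner error or within 1.5 times the count. Of 216 values of single genes under these alternatives, 196 moved by less than the scanner error and 20 moved by more. Of the latter, 16 were among the 24 values under spike-in scaling. No value past the ratio limit turned direction. The settings for dim signals and for detection could not move these values, because all 8 genes had a probe well above background on each array. The deposited values were quantile normalized as well. The count of 196 therefore overstates how many values were put to a real change of processing. No paired analysis was possible because each condition had 1 array, and for the same reason no array could be left out.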
